A study of Mus musculus with 8 samples.

Results

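The Hox genes encode the homeodomain transcription factors of the 4 mammalian Hox clusters, Hoxa, Hoxb, Hoxc and Hoxd. Every entry of the deposited count table whose symbol is one of these names followed by digits was taken, leaving out entries with a suffix for duplicates, which gave 39 genes of 24078 entries. Of these, 11 belonged to Hoxa, 10 to Hoxb, 9 to Hoxc and 9 to Hoxd. All 39 were found in GENCODE release M21 on mm10, and all 39 passed the low-count filter and were tested. RNA was sequenced from the hippocampus, a part of the forebrain, of 4 mice labelled homozygous and 4 labelled wild-type, 1 animal per library. The labels name Wfs1 as the mutated gene and Wfs1tm1Koks as the strain for both genotypes, and give no age, sex, litter or batch. Wfs1 encodes wolframin, a membrane protein of the endoplasmic reticulum whose loss causes Wolfram syndrome in people. Total RNA was depleted of ribosomal RNA and read on a SOLiD 4 instrument.

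In the embryo, Hox genes are switched on in the order in which they lie along each cluster, and they give the hindbrain, spinal cord, vertebrae and limbs their identity along the head-to-tail axis. Paralogs with low numbers act furthest towards the head, with a front limit in the hindbrain, and those with high numbers act in the lower trunk, limbs and tail. The forebrain develops in front of all of these limits, and there the clusters are known to be held silent by Polycomb complexes, while Trithorax proteins keep them active further back.

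The promoters of 4 Hox genes are shown first, because Hoxd9, Hoxd13 and Hoxc4 rose in homozygous libraries under every alternative analysis run, and Hoxd8, the neighbour of Hoxd9, was the 1 Hox gene that fell, a call that most alternatives lost. They were chosen after the values were seen. Each sequence is the 250 bases before a RefSeq transcription start, on the plus strand of GRCm38.p6, with the dinucleotide CG in capitals. The windows are chr2:74697513-74697762 for Hoxd9, chr2:74667975-74668224 for Hoxd13, chr15:103034145-103034394 for Hoxc4 and chr2:74704365-74704614 for Hoxd8. The starts of Hoxc4 and Hoxd9 used here lie inside the GENCODE gene, so other starts of these genes are not shown.
Hoxd9: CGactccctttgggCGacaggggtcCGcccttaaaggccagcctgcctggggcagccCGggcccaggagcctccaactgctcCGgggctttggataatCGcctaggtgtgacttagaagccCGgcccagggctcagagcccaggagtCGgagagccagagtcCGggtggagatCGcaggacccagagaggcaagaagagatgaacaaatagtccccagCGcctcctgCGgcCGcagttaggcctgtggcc
Hoxd13: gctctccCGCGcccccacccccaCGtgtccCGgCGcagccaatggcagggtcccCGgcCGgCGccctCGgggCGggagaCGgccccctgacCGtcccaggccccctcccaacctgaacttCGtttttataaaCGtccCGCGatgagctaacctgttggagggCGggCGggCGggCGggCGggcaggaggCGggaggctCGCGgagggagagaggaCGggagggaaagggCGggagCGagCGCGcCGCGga
Hoxc4: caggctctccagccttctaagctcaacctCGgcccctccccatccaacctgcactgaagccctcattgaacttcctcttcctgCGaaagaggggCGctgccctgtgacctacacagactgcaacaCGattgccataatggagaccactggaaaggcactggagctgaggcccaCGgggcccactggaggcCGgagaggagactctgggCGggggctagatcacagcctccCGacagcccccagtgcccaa
Hoxd8: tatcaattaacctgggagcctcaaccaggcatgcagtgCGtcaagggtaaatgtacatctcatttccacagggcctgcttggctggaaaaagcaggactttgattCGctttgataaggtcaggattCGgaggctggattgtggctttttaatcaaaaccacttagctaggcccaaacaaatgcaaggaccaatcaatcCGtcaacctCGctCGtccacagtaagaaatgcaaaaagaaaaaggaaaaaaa

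CG occurred 13 times in the Hoxd9 window, 31 times in Hoxd13, 8 times in Hoxc4 and 6 times in Hoxd8. Over the 24 promoters of 22 Hox genes that the RefSeq table held, the median was 12.5 CG, with a range of 2 to 35, against a median of 6 over all 32841 promoters of the same length. Their median GC content was 58.6%, against 52.4% over all. Exact matches to 4 motifs were searched on both strands. The TATA sequence TATAAA was found in 4 Hox promoters (16.7%, against 12.4% of all), the homeodomain core TAATTA in 2 (8.33% against 4.84%), and the joint Hox and Pbx sequence TGATTNAT in 2 (8.33% against 2.83%). CCAAT was found in 14 Hox promoters, or 58.3%, against 33.9% of all promoters. It stood in the windows of Hoxd13 and Hoxd8 and not in those of Hoxd9 and Hoxc4. Of the promoters of Hox genes that rose, 2 of 8 held CCAAT, as did 11 of 15 of genes that passed the test in neither direction. These counts describe the letters of the windows only.

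The libraries held 3250949 to 6747411 counts. Levels are given as CPM, the read count of a gene normalised to the depth of its library after TMM scaling. Wfs1 stood at 44.6 to 61.3 CPM in wild-type and 12 to 17.7 CPM in homozygous libraries, with no overlap. Per kilobase of exon, 14 hippocampal neuron markers had a median of 22.2 CPM in wild-type libraries and a range of 1.5 to 195 CPM, highest for Slc17a7, the vesicular glutamate transporter. In homozygous libraries 8 of the 14 fell (57.1%, beside 20.4% of all genes tested) and 1 rose (7.14%, beside 20.7%), by the test described below.

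In both genotypes most Hox genes lay within the range of 4 gene families little used in brain, and their median lay close to that of the whole table. Per kilobase of exon, the scale on which genes are compared here, the median over the 39 genes was 5.83 CPM in wild-type and 5.19 CPM in homozygous libraries, and the lowest gene, Hoxd11, stood at 1.45 and 1.43 CPM. The median over all entries with an exon length was 4.78 CPM in wild-type and 5.40 CPM in homozygous libraries, so the typical Hox gene lay close to the typical entry of the table. As a gauge of genes little used in brain, 153 keratin, taste receptor, Cyp2 and Mrgpr genes were measured the same way in the same libraries. Their median was 3.22 CPM per kilobase in wild-type and 3.81 in homozygous libraries, with 10th and 90th percentiles of 0.938 and 7.31 in wild-type and 1.40 and 7.83 in homozygous libraries. In wild-type libraries 26 of 39 Hox genes fell within that range, 13 above it and 0 below it, and in homozygous libraries 24 fell within it and 15 above it. For the genes within it, these libraries do not separate Hox transcripts from the level counted over those 4 families.

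**Figure D1:**
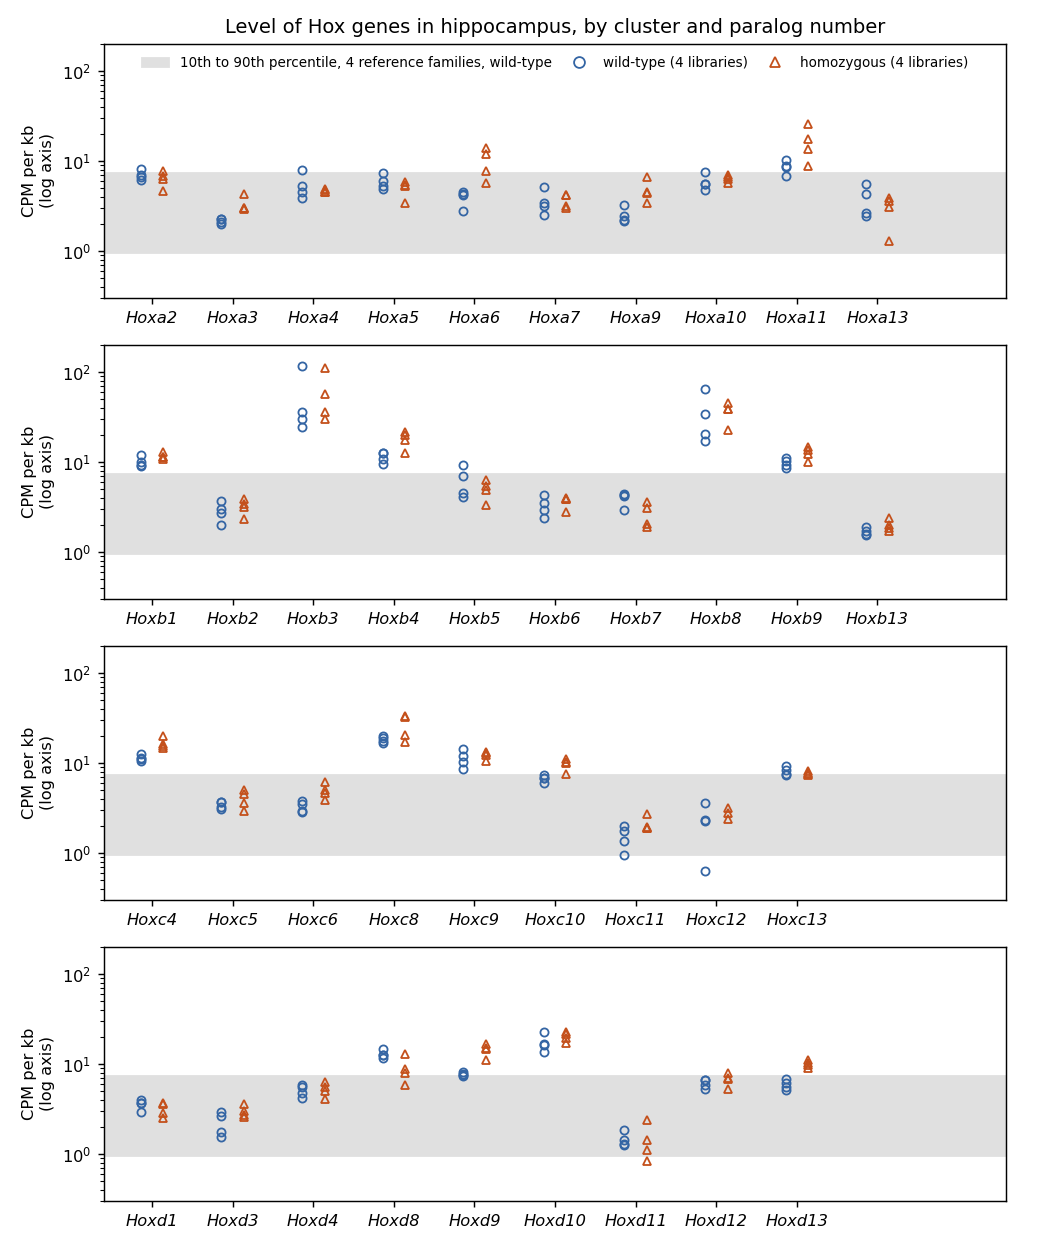
Level of Hox genes in CPM per kilobase of exon (log axis), with 1 circle per wild-type and 1 triangle per homozygous library, and the 10th to 90th percentile of the 4 reference families in wild-type libraries in grey. Most genes lie within the grey band, Hoxb3 and Hoxb8 stand above it in every library, and the homozygous library with 0 counts of Hoxc12 cannot be drawn on this axis.

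The genes of highest level per kilobase over the 8 libraries were Hoxb3, Hoxb8, Hoxc8, Hoxd10, Hoxb4 and Hoxc4, in that order. In wild-type libraries Hoxb3 stood at 51.9 and Hoxb8 at 34.1 CPM per kilobase, and Hoxc8 and Hoxd10 followed at 18.4 and 17.3. Hoxb3 and Hoxb8 lay at the 96.8th and 94.6th percentiles of the tested genes with an exon length. Hoxb4 and Hoxc4 both stood at 11.3 CPM per kilobase in wild-type libraries. At the other end, Hoxc12 was the 1 Hox gene with 0 counts in a library, homozygous replicate 16, where a count of 0 allows up to 0.871 CPM (3 counts, for counting error only).

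Hoxb3, which patterns a segment of the hindbrain, was also uneven between animals, with a coefficient of variation of 85.1% in wild-type and 63.1% in homozygous libraries. Wild-type replicates 7, 8, 9 and 10 gave 127, 501, 151 and 104 CPM, and homozygous replicates 15, 16, 17 and 18 gave 476, 128, 154 and 244 CPM, the order in which all values per library follow. Wild-type replicate 8 and homozygous replicate 15 were high, homozygous replicate 18 lay between, and the other libraries were low, so the groups overlapped over most of their range. The means were 221 ± 188 and 251 ± 158 CPM (SD, n = 4 each), and the log2 fold change of 0.19 (SE 0.52) had an edgeR adjusted p of 0.783. Without wild-type replicate 8 the log2 fold change was 0.96 with an edgeR adjusted p of 0.0766, without wild-type replicate 10 it was -0.04, and without homozygous replicate 15 it was -0.32. Exons of Hoxb3 share 2250 bases, 52.9% of its exon length, with the antisense gene Hoxb3os. Since no source used here states whether the authors' counting read the strand, reads of the pair cannot be told apart.

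Hoxb8, whose loss causes excessive grooming in mice and which marks a lineage of microglia, showed a similar unevenness. It stood at 89.6, 171, 53.7 and 45.2 CPM in the wild-type libraries, and at 102, 59.5, 103 and 121 CPM in the homozygous libraries, in replicate order. Wild-type replicate 8 was again the highest library and the groups overlapped. The log2 fold change was 0.11 (SE 0.37) with an edgeR adjusted p of 0.818, and its sign turned without wild-type replicate 9 (-0.07), wild-type replicate 10 (-0.11) or homozygous replicate 18 (-0.02). Ttr, the most abundant choroid plexus marker, stood at 431, 1018, 317 and 89.8 CPM in wild-type and at 594, 29.0, 723 and 18.5 CPM in homozygous libraries. It was highest in the same wild-type library as Hoxb3 and Hoxb8, while homozygous replicate 18 was low for Ttr and not for these 2 Hox genes. The part of choroid plexus tissue in their values was not tested.

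**Figure D2:**
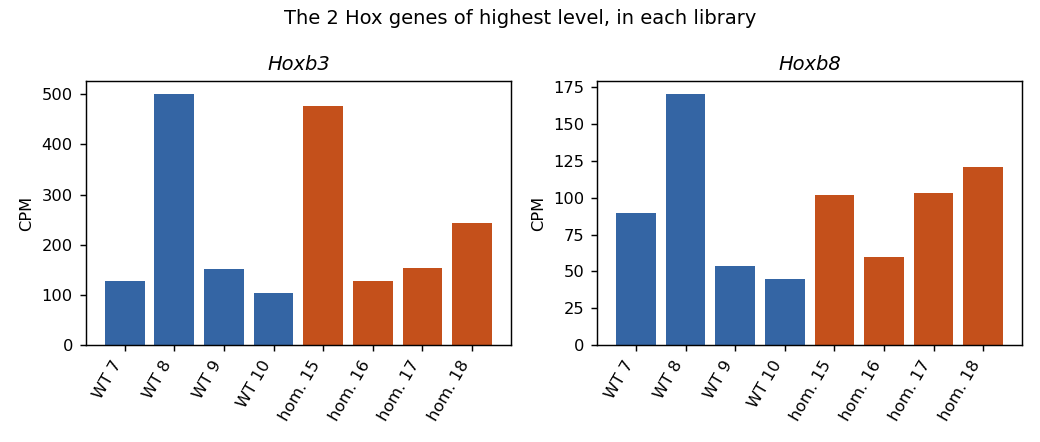
Level in CPM of Hoxb3 (left) and Hoxb8 (right) in each of the 8 libraries, 4 wild-type (WT) in blue and 4 homozygous (hom.) in orange. Hoxb3 reached 501 CPM in wild-type replicate 8 and 476 CPM in homozygous replicate 15, and the genotypes overlap for both genes.

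Homozygous and wild-type libraries were compared with edgeR's quasi-likelihood test, with p-values adjusted by the Benjamini-Hochberg method over all 20478 genes tested and called under 0.05. Of the 39 Hox genes, 11 rose, 1 fell and 27 passed in neither direction. Of all genes tested, 20.7% rose and 20.4% fell, so 28.2% of Hox genes against 20.7% rose, and 2.56% against 20.4% fell. The median log2 fold change was 0.19 over the Hox genes and 0.05 over all genes, and 30 Hox genes had a value above 0 and 9 below. In 9 Hox genes all homozygous values exceeded all wild-type values (9 of 39, beside 18.8% of all genes tested), and in 0 Hox genes they all lay below (beside 18.8%). The share that rose lay near the background, and the share that fell lay below it. In bulk tissue, more cells of a type and more RNA per cell cannot be told apart.

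Shares were also taken over genes of like level, a range chosen after the values were seen. Among 14426 other genes between 2.50 and 15.4 CPM per kilobase, the 10th and 90th percentiles of the Hox genes, 22.6% rose and 15.8% fell, and their median log2 fold change was 0.09. Of the 31 Hox genes in that range 35.5% rose and 3.23% fell, with a median of 0.18. The 4 reference families leaned the same way as the Hox genes, since 31 of their 134 tested members (23.1%) rose and 7 (5.22%) fell, with a median of 0.35. Scaling by library totals alone, without TMM factors, moved the median of all genes from 0.05 to 0.25 and the calls from 4241 higher and 4168 lower to 6645 and 2412. Under it 16 Hox genes rose and 0 fell, and the Hox median lay 0.15 above that of all genes, against 0.14 above it with TMM.

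**Figure D3:**
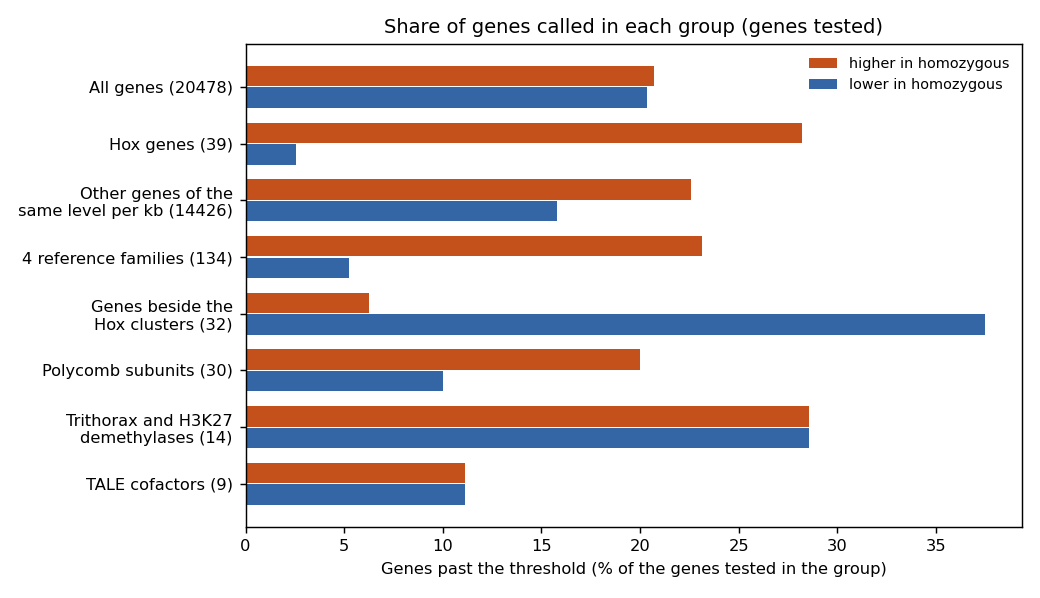
Percent of the tested genes in each group that rose (orange) or fell (blue) in homozygous libraries at an edgeR adjusted p under 0.05, with the number tested in parentheses. The Hox genes (28.2% and 2.56%) and the 4 reference families (23.1% and 5.22%) lean towards higher values, and the genes beside the clusters (6.25% and 37.5%) lean towards lower values.

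**Figure D4:**
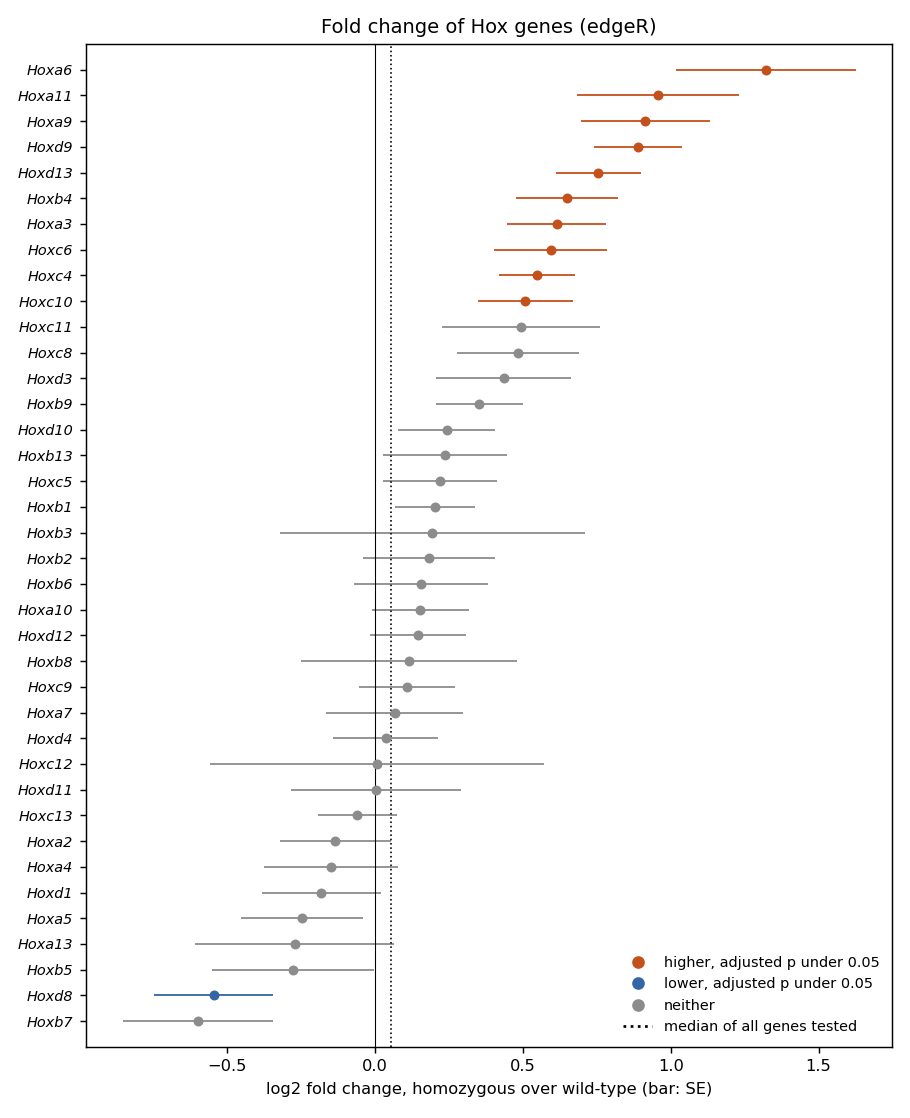
Fitted log2 fold change, homozygous over wild-type, of the Hox genes, with bars of 1 SE and the median of all genes tested as a dotted line. Genes that rose are in orange, Hoxd8 is in blue, and Hoxb3, Hoxc12 and Hoxb8 have the longest bars.

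The summed Hox level was 758, 1277, 725 and 742 CPM in wild-type and 1232, 806, 1055 and 1109 CPM in homozygous libraries, and the groups overlapped. Hoxb3 and Hoxb8 were then left out, a choice made after the values were seen. Without Hoxb3 and Hoxb8 the sum was 541, 605, 520 and 593 CPM in wild-type and 654, 619, 798 and 744 CPM in homozygous libraries. All homozygous sums then lay above all wild-type sums, and the means were 565 ± 40.6 and 704 ± 82.1 CPM (SD, n = 4 each). Homozygous replicate 16 was the homozygous library nearest to wild-type, with 20 of 39 Hox genes above the wild-type mean, against 27, 28 and 32 in replicates 15, 17 and 18. Wild-type libraries had 11, 26, 9 and 24 genes above that mean. No such counts were taken over all genes. Without homozygous replicate 16, 13 Hox genes rose and 1 fell (median 0.30), beside 3982 and 3972 of all 21017 genes tested (median 0.04). Without wild-type replicate 9, 8 Hox genes rose and 0 fell (median 0.14), beside 3178 and 3311 of all 20355 genes tested (median 0.04).

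The Hoxa cluster, on the minus strand of chromosome 6 of mm10, held 5 of the 11 genes that rose. They were 45.5% of its 11 members, beside 20.7% of all genes tested. Hoxa6 (52206288 to 52208722) had the largest fold change of all Hox genes. It stood at 3.64, 3.73, 2.41 and 4.00 CPM in wild-type and at 6.71, 12.2, 10.4 and 4.99 CPM in homozygous libraries, and the groups did not overlap. It rose by 1.32 on the log2 scale (SE 0.30, edgeR adjusted p = 0.00589). Hoxa9 (52223100 to 52231089), a regulator of blood progenitors that is often raised in leukaemia, stood at 13.5, 12.2, 12 and 18.1 CPM in wild-type and at 24.4, 37.5, 25.2 and 18.8 CPM in homozygous libraries. Wild-type replicate 10 and homozygous replicate 18 lay close together without overlapping, and the log2 fold change was 0.91 (SE 0.22, edgeR adjusted p = 0.00706). Hoxa3 (52169062 to 52213336), needed for the thymus and parathyroid glands, stood at 12, 13.6, 12.7 and 13.7 CPM in wild-type and at 17.7, 26.1, 17.9 and 17.9 CPM in homozygous libraries. Every homozygous library exceeded every wild-type library, with replicate 16 well above the other three. Its log2 fold change was 0.61 (SE 0.17, edgeR adjusted p = 0.0133). The adjusted p was 0.0621 once the trend of log2 counts on counts per kilobase had been removed from each library. Exons of Hoxa3 share 503 bases (8.36% of its exon length) with Hoxaas2 on the opposite strand. They share 482 bases with Gm28308 on the same strand, and fewer with other genes, and reads of shared bases cannot be told apart.

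Hoxa11 (52242106 to 52245810), which forms the forelimb and the uterus, stood at 19.9, 23.4, 15.7 and 19.4 CPM in wild-type and at 31.4, 20.04, 59.6 and 40.2 CPM in homozygous libraries. Homozygous replicate 16 lay among the wild-type libraries, so the groups overlapped, and replicate 17 was far above. Its log2 fold change was 0.96 (SE 0.28, edgeR adjusted p = 0.0169), and without wild-type replicate 9 the adjusted p was 0.0538. Its antisense gene, listed as Hoxa11as, shares 800 bases of exon (35.0% of the Hoxa11 exon length) and had a log2 fold change of 0.30 (edgeR adjusted p = 0.225). The members Hoxa2, Hoxa4, Hoxa5, Hoxa7, Hoxa10 and Hoxa13 had log2 fold changes of -0.27 to 0.15.

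In the Hoxb cluster, on the plus strand of chromosome 11 from 96194316 to 96368256, 1 of 10 genes rose (10%, beside 20.7% of all genes tested). Hoxb4 (96318267 to 96321638), which expands blood stem cells when supplied in culture, stood at 32.1, 24.4, 27.4 and 32.4 CPM in wild-type and at 44.5, 32.2, 55.5 and 51.1 CPM in homozygous libraries. Homozygous replicate 16 fell just inside the wild-type range and the other three lay above it. Its log2 fold change was 0.65 (SE 0.17, edgeR adjusted p = 0.0117). Hoxb9 and Hoxb7 came nearest to the threshold among the genes that missed it. Hoxb9, active at trunk levels, stood at 26.6, 24.1, 22.1 and 28.8 CPM in wild-type and at 34.6, 25.8, 37.3 and 31.7 CPM in homozygous libraries, with replicate 16 overlapping (log2 fold change 0.35, edgeR adjusted p = 0.0754). Hoxb7 stood at 4.5, 6.78, 6.58 and 6.52 CPM in wild-type and at 3.18, 5.52, 2.89 and 4.70 CPM in homozygous libraries, where wild-type replicate 7 overlapped with the homozygous values. Its log2 fold change of -0.60 (edgeR adjusted p = 0.0778) was the lowest among the Hox genes. Among fits that left out 1 library, only the one without homozygous replicate 16 called Hoxb9 (edgeR adjusted p = 0.0284) and Hoxb7 (0.036). In the others the edgeR adjusted p was 0.0722 to 0.196 for Hoxb9 and 0.0545 to 0.211 for Hoxb7.

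In the Hoxc cluster, on the plus strand of chromosome 15 from 102921103 to 103036852, 3 of 9 genes rose (33.3%, beside 20.7% of all genes tested). Hoxc4 (103018934 to 103036852) stood at 28.3, 28.8, 27.3 and 32 CPM in wild-type and at 38.2, 41.8, 50.9 and 39.6 CPM in homozygous libraries. The groups did not overlap, and the log2 fold change was 0.55 (SE 0.13, edgeR adjusted p = 0.00636). Hoxc10 (102966796 to 102971893), a gene of lumbar motor neurons, stood at 12.9, 11.5, 13 and 14.1 CPM in wild-type and at 14.5, 19.2, 19.4 and 21.1 CPM in homozygous libraries. Homozygous replicate 15 lay just above the highest wild-type library. The log2 fold change was 0.51 (SE 0.16, edgeR adjusted p = 0.0257), and the adjusted p was 0.056 to 0.0695 without any one of wild-type replicates 7, 8 and 9 or homozygous replicates 17 and 18. It was 0.0502 with limma-voom and 0.0817 with the trend on abundance removed. Hoxc10 shares 166 bases of exon with Hoxc5, whose log2 fold change was 0.22 (edgeR adjusted p = 0.381).

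Hoxc6 (102998257 to 103011881), a gene of motor neurons at forelimb level, stood at 9, 7.12, 6.90 and 8.42 CPM in wild-type and at 11.3, 9.29, 12.1 and 15 CPM in homozygous libraries. Homozygous replicate 16 was only slightly above wild-type replicate 7, and the groups did not overlap. The log2 fold change was 0.59 (SE 0.19, edgeR adjusted p = 0.0277), and the adjusted p was 0.0519 to 0.0853 without wild-type replicate 8 or 9 or homozygous replicate 17 or 18, and 0.113 when either trend on gene level was removed. Hoxc8, which also marks forelimb-level motor neurons, missed the threshold. It stood at 50.4, 47.8, 53.3 and 56.8 CPM in wild-type and at 57.6, 47.9, 94.0 and 92.8 CPM in homozygous libraries. Replicates 17 and 18 were high while replicate 16 lay within the wild-type range, and the log2 fold change of 0.48 had an edgeR adjusted p of 0.0789. Without replicate 16 it was 0.63 with an edgeR adjusted p of 0.0143, the only fit leaving out 1 library that called Hoxc8. In the others the edgeR adjusted p was 0.0544 to 0.215, highest without homozygous replicate 17.

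In the Hoxd cluster, on the plus strand of chromosome 2 from 74668310 to 74765142, 2 of 9 genes rose and 1 fell. These shares were 22.2% and 11.1%, beside 20.7% and 20.4% of all genes tested. Hoxd9 (74697727 to 74700208), which acts with Hoxa9 in the upper forelimb, had the smallest adjusted p of all Hox genes. It stood at 16.3, 17.3, 15.7 and 16.6 CPM in wild-type and at 23.7, 35.4, 32.1 and 31.4 CPM in homozygous libraries. The wild-type values were tight and every homozygous value lay above them, with means of 16.5 ± 0.656 and 30.7 ± 4.97 CPM (SD, n = 4 each). Hoxd9 rose by 0.89 on the log2 scale (SE 0.15, edgeR adjusted p = 0.0011). Hoxd13 (74668310 to 74671599), which shapes the digits and is mutated in human synpolydactyly, stood at 12.9, 15.3, 13.6 and 17 CPM in wild-type and at 22.4, 27.3, 25.4 and 24.1 CPM in homozygous libraries. The groups lay well apart, at 14.7 ± 1.85 and 24.8 ± 2.07 CPM (SD, n = 4 each), with a log2 fold change of 0.75 (SE 0.14, edgeR adjusted p = 0.00221).

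Hoxd8 (74704615 to 74707933), which begins 4406 bases after Hoxd9 ends, stood at 34.7, 40.3, 32.1 and 34.5 CPM in wild-type and at 21.5, 16, 35.0 and 24.4 CPM in homozygous libraries. Homozygous replicate 17 lay within the wild-type range and the other three lay below it. The log2 fold change was -0.55 (SE 0.20, edgeR adjusted p = 0.0484). The adjusted p was 0.0668 to 0.122 without any one of wild-type replicates 7, 8, 9 and 10 or homozygous replicates 15, 16 and 18, it was 0.174 with library totals, and 0.0501 and 0.119 with the trends on gene level removed. Hoxd10, also a gene of lumbar motor neurons on the other side of Hoxd9, stood at 29.4, 41.0, 24.7 and 30.3 CPM in wild-type and at 39.2, 31.4, 41.1 and 34.9 CPM in homozygous libraries. The groups overlapped (log2 fold change 0.24, edgeR adjusted p = 0.253). Hoxd3, needed for the first neck vertebrae, stood at 6.43, 11.2, 7.38 and 12.2 CPM in wild-type and at 12.5, 11.3, 10.7 and 15 CPM in homozygous libraries. It overlapped too, with a log2 fold change of 0.43 and an edgeR adjusted p of 0.145, and 53.1% of its exon length is shared with the readthrough gene Gm28230.

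**Figure D5:**
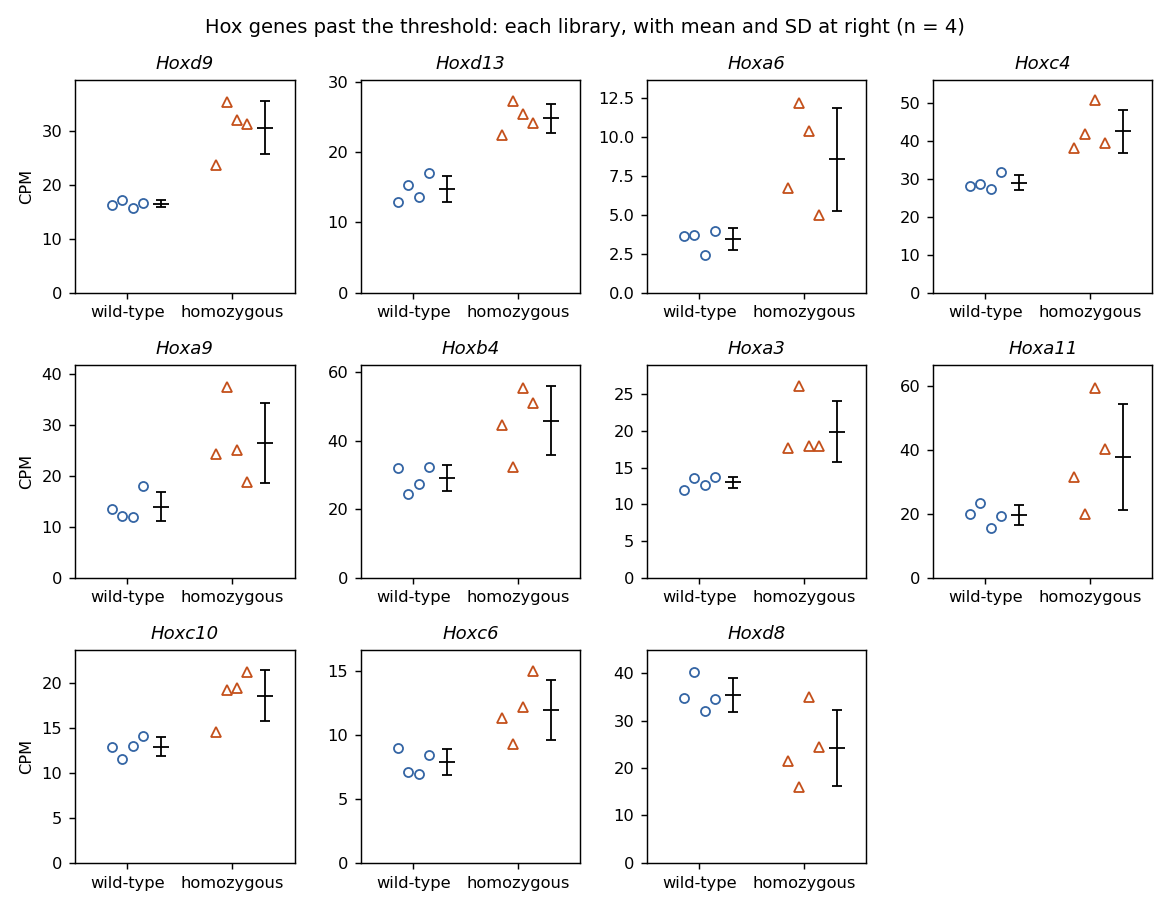
Level in CPM in each library for Hox genes past the threshold, wild-type as circles and homozygous as triangles in replicate order, with the mean and SD (n = 4) at the right of each group. The groups overlap for Hoxb4, Hoxa11 and Hoxd8 and lie apart for the other genes drawn.

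By place along the clusters, 2 of 8 genes of paralog groups 1 to 3 rose (25%) and 5 of 16 of groups 9 to 13 (31.25%). Of groups 4 to 8, 4 of 15 rose (26.7%) and 1 fell (6.67%). Of all genes tested, 20.7% rose and 20.4% fell. Calls did not run in blocks. Hoxc6 and Hoxc4 were the 1 pair of neighbours by start position in which both rose. By paralog number Hoxc5, which passed in neither direction, lies between them, and its annotated end at 103017429 does too. Hoxa9 rose while Hoxa10, 107 bases away, did not pass (log2 fold change 0.15, edgeR adjusted p = 0.476). Hoxd9, Hoxd13, Hoxa6, Hoxa9, Hoxb4 and Hoxc4 remained called in all 16 alternative analyses. The other 6 genes lost the call in at least 1.

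Of the cofactors with which Hox proteins bind DNA, 9 Pbx, Meis and Pknox genes were tested, and 1 rose and 1 fell. Each share was 11.1%, beside 20.7% that rose and 20.4% that fell of all genes tested. Pknox1, also called Prep1, stood at 27.2, 32.2, 32.2 and 32 CPM in wild-type and at 51.0, 72.6, 36.4 and 45.2 CPM in homozygous libraries, without overlap (log2 fold change 0.73, SE 0.19, edgeR adjusted p = 0.0101). Meis1, Meis2 and Meis3 had log2 fold changes of 0.01, 0.12 and -0.28 and passed in neither direction.

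Of 30 Polycomb subunits, which hold Hox clusters silent, 6 rose and 3 fell, and the median log2 fold change was 0.13. These shares were 20% and 10%, beside 20.7% and 20.4% of all genes tested. Cbx7, a subunit that reads the repressive histone mark, had the largest rise, from 35.5 ± 2.09 to 121 ± 19.2 CPM (SD, n = 4 each; 1.76, SE 0.14, edgeR adjusted p = 1.14e-05). Pcgf2 rose by 0.95 and Phf19 by 0.94, and Yaf2 fell by 1.06 on the log2 scale. Ezh2, the methyltransferase, rose from 12.5 ± 2.02 to 18.2 ± 3.20 CPM (0.52, edgeR adjusted p = 0.034). It is named outside the naming rule, chosen after its value was seen, and Jarid2 (0.72) and Cbx2 (0.57) rose with smaller p. Ezh1, Eed, Suz12, Rbbp4 and Rbbp7, also outside the rule, passed in neither direction (0.48, -0.09, -0.14, -0.20 and -0.38). Of 14 tested genes for Trithorax proteins and demethylases of the repressive histone mark, 4 rose and 4 fell (28.6% each). Mll1 (Kmt2a), which keeps Hox genes active, rose from 183 ± 20.6 to 415 ± 127 CPM (1.18, SE 0.20, edgeR adjusted p = 0.00122), Wbp7 (Kmt2b) rose by 0.98 and the demethylase Kdm6b by 0.58, while Ash1l fell by 0.46. Of 25 genes that act upstream of Hox genes in the embryo, mostly retinoic acid, Cdx and growth factor genes, 4 rose and 3 fell (16% and 12%). Gdf11, a growth factor that sets the trunk-to-tail transition, rose by 0.80 (edgeR adjusted p = 0.00456), Egr2, an activator of Hox genes in the hindbrain, rose by 0.76, the retinoic acid enzyme Aldh1a1 fell by 0.76 (edgeR adjusted p = 0.0039) and Rxrb fell by 0.54.

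Of 26 listed non-coding RNA genes of the clusters, 11 were found as entries of the table and 4 passed the low-count filter. The list does not hold every such gene. It left out the entry 1700109F18Rik (Hoxd3os1), an antisense gene that overlaps Hoxd3, Hoxd4 and Hoxd8 in position. The entry 5730457N03Rik (Evx1os), beside Evx1 at the end of the Hoxa cluster, stood at 10.5, 11.9, 11.1 and 13 CPM in wild-type and at 49.5, 40.9, 20.8 and 24.1 CPM in homozygous libraries. It rose in every homozygous library, with a log2 fold change of 1.56 (SE 0.26, edgeR adjusted p = 0.00111), while Evx1 itself, which it overlaps in position, had a value of 0.31 (edgeR adjusted p = 0.152). Hoxa11as, 2700086A05Rik (Hoxaas3) and Mira passed in neither direction. The 6 miRNA hairpins, Mir10a, Mir10b, Mir196a-1, Mir196a-2, Mir196b and Mir615, were counted at means under 1 CPM and were not tested.

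Of 32 tested genes that flank the clusters, 2 rose (6.25%, beside 20.7% of all genes tested) and 12 fell (37.5%, beside 20.4%). Their median log2 fold change was -0.26. Beside the Hoxb cluster, Igf2bp1, which binds messenger RNA, rose from 79.8 ± 6.95 to 133 ± 5.14 CPM (SD, n = 4 each; 0.74, edgeR adjusted p = 0.000674), and Atp5g1, a subunit of ATP synthase, fell from 13.3 ± 0.765 to 6.74 ± 0.793 CPM (-0.97, edgeR adjusted p = 0.00107). Copz1, a vesicle coat protein beside Hoxc, fell by 0.93 and Cbx3, a heterochromatin protein beside Hoxa, by 0.68. Evx2, next to Hoxd13, had a value of -0.10 (edgeR adjusted p = 0.74). Whether flanking and Hox genes differed was not tested.

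Other homeobox genes gave a mixed picture. Of 25 forebrain homeobox and patterning genes, whose median wild-type level was 4.09 CPM per kilobase, 6 rose and 3 fell. These shares were 24% and 12%, beside 20.7% and 20.4% of all genes tested. Otx1 rose by 1.18, Zeb2 fell by 1.10 and Lhx9 rose by 0.46. Of 24 tested homeobox genes outside the Hox clusters, 4 rose (16.7%) and 2 fell (8.33%), led by Obox5 (2.20), Meox1 (0.98), Obox1 (-2.31) and Obox3 (1.25). Obox genes have near-identical copies, so their counts are uncertain.

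Markers of other tissues and cells that a dissected hippocampus could hold, or in which Hox genes are used, were read in the same libraries. Of 19 tested hindbrain and spinal cord markers 6 rose and 1 fell (31.6% and 5.26%, beside 20.7% and 20.4% of all genes tested). The list summed to between 324 and 422 CPM in wild-type and between 459 and 528 CPM in homozygous libraries. Pax2, Slc6a2 and Gata3 rose by 1.19, 1.20 and 0.83 and Tlx3 fell by 0.88. Of 12 meningeal and fibroblast markers, 2 rose (16.7%), Col1a1 by 0.88 and Col1a2 by 0.75, and 0 fell. These markers summed to between 236 and 285 CPM in wild-type and between 298 and 384 CPM in homozygous libraries. Of 7 tested blood cell markers, 3 rose (42.9%) and 4 fell (57.1%, 2 of these with identical counts). Their sums were 89.2 to 146 CPM in wild-type and 109 to 162 CPM in homozygous libraries. Of 10 choroid plexus markers 1 rose (10%) and 2 fell (20%), with sums of 431 to 1447 CPM and 257 to 1011 CPM. No marker of these 4 lists was at 0 in all 8 libraries. The hindbrain and meningeal sums were higher in every homozygous library. So was the Hox sum without Hoxb3 and Hoxb8, which were left out after the values were seen, while the full Hox sum overlapped between genotypes. The 4 reference families, little used in brain, summed to 1199 to 1539 CPM in wild-type and 1423 to 1599 CPM in homozygous libraries, with overlap. Their median log2 fold change was 0.35, beside 0.31 for the hindbrain list and 0.25 for the meningeal list. The part of hindbrain and meningeal tissue in the Hox values was not tested.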

How the data were processed

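Hippocampal total RNA from 8 mice was depleted of ribosomal RNA and sequenced as barcoded paired-end libraries, per the labels' protocols. For all libraries the authors deposited raw read counts by gene symbol in a single table, whose build is mm10 (GRCm38) per the submitters' processing notes. Neither aligner nor counter, strand handling or gene annotation is named in the sources used here. Exon lengths, positions and overlaps came from GENCODE M21, which matched 93.9% of entries and all Hox genes, and promoters from RefSeq on GRCm38.p6. Columns were assigned to animals by the titles in the labels.

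In R 4.3.3, filterByExpr of edgeR 4.0.16 kept 20478 genes and removed 3600. Libraries were scaled with TMM, and the 2 genotypes were compared by the two-sided quasi-likelihood test without covariates, adjusted by Benjamini-Hochberg over all genes tested and called under 0.05. Errors are SDs over 4 libraries for CPM and SEs for log2 fold changes. The code was tested on simulated counts. Alternatives were DESeq2-type size factors, library totals, no filter, a filter of 1 CPM in 4 libraries, DESeq2 1.42.0, limma 3.58.1 voom with quality weights, removal, per library, of a loess trend (span 0.3) of log2 counts on mean abundance or on counts per kilobase, leaving out each library, and, chosen after seeing the data, exon lengths of the GENCODE basic set. Tables used Python 3.11.15, pandas 2.3.3, NumPy 2.4.6 and matplotlib 3.10.9.

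Values in every library are given for each Hox gene past the threshold, the 6 of highest mean CPM per kilobase over all libraries, and the 4 nearest the threshold that missed it. Of each other list up to 4 members past the threshold, by smallest p, are named. The members, the lists and the reference families were chosen with earlier results of these data known. The range of equal level, the printed promoters and the sum without Hoxb3 and Hoxb8 were chosen after their values were seen. Some genes that these rules select are not reported here or drawn in the figures, while the counts, medians and sums include them.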

Additional observations from a re-analysis of the deposited data

Results flagged for a closer look

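In 5 of 78 groups of 4 libraries (39 Hox genes in each genotype), 1 library stood apart from the other three by Dixon's criterion, the gap to the nearest library over the whole range. Chance gives about 1 in 20 such groups. Hoxb3 was 501 CPM in wild-type replicate 8, against 104 to 151 CPM in the other wild-type libraries. Hoxa3 was 26.1 CPM in homozygous replicate 16, against 17.7 to 17.9 CPM. Hoxc11 was 5.49 CPM in homozygous replicate 17, against 3.78 to 3.89 CPM. Hoxb7 was 4.5 CPM in wild-type replicate 7, against 6.52 to 6.78 CPM, and Hoxb6 was 5.48 CPM in homozygous replicate 15, against 7.55 to 7.81 CPM.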

How the results depend on the processing

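Library totals without TMM factors gave 6645 genes higher and 2412 lower, 0 Hox genes lower and a Hox median log2 fold change of 0.40, and 73.4% of all calls were then higher, against 50.4% with TMM. Leaving out 1 library at a time gave 8 to 13 Hox genes higher and 0 to 1 lower, with a Hox median of 0.14 to 0.30. Of all genes, 3178 to 3995 were then higher and 3311 to 4253 lower, of 20114 to 21151 tested. The Hox count was 9 to 11 higher and 1 lower under the other 7 alternatives, with a Hox median of 0.10 to 0.26. Under those, 3379 to 4640 of all genes were higher and 3051 to 4607 lower, of 20062 to 23079 tested. The lowest Hox median, 0.10, came with the trend on abundance removed and lay 0.09 above that of all genes. Without wild-type replicate 8 the log2 fold changes of Hoxb3 and Hoxb8 were 0.96 and 0.60. The sign turned for Hoxb3 without wild-type replicate 10 (-0.04) or homozygous replicate 15 (-0.32), and for Hoxb8 without wild-type replicate 9 (-0.07), wild-type replicate 10 (-0.11) or homozygous replicate 18 (-0.02), and the cause was not tested. Among the 19 Hox genes that the naming rule selects and the summary values, 332 alternative values were counted as kept. Another 29 lost a call, 14 gained one, 10 summary values moved and 5 values of single genes changed sign. For single genes only direction and call were compared, so Hoxb3 at 0.96 without wild-type replicate 8 counts as kept. The Hox median of 5.83 CPM per kilobase moved to 5.22 to 5.94 without 1 wild-type library and to 5.92 with the basic exon lengths. No paired analysis was possible because the genotypes share no replicate numbers. Depth was 3250949 to 6747411 counts per library, so the lowest Hox genes rest on few counts, and the 0 counts of Hoxc12 in homozygous replicate 16 allow up to 0.871 CPM.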
